A study of Mus musculus with 24 samples.

Results

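The complement components and the C3a receptor studied here were C1qa, C1qb, C1qc, C4b, C2, C3, Cfb, Cfd and C3ar1, 9 of 34947 gene names on a mouse expression array. They were taken as every probe other than a control whose gene name in the scanner files equals one of these symbols. That gave 10 probes of 55681, with 2 for C3 and 1 for each other gene. Levels were read in male mice of the obese, diabetes-prone New Zealand Obese strain (NZO/HiBomDife, here NZO) and of C57BL/6 (here B6). All of them received a diet with 45% fat, and tissue was taken at 6 weeks. The groups were gonadal white fat (gWAT) of NZO and of B6, brown fat (BAT) of NZO and of B6, and skeletal muscle (quad in the sample titles) of NZO and of B6, each with 4 arrays. One B6 muscle array, number 011, was left out by the rule that defines the genes, so that B6 muscle had 3 arrays and 23 of 24 arrays were used. The strains differ across the whole genome, so strain is the only genetic contrast available and no single allele is tested. The labels do not say that the samples of a group came from separate animals, and p-values therefore measure the spread between samples, which may be technical.

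Complement is a cascade of plasma proteins that marks surfaces for uptake and recruits immune cells. In the classical pathway C1q binds a target, its partner proteases cleave C4 and C2, and the fragments form an enzyme that cleaves C3. In the alternative pathway factor D cleaves factor B bound to C3, which makes a second C3-cleaving enzyme, and the small C3 fragment C3a acts on the receptor C3aR. Tissue macrophages are a main source of C1q, and adipocytes secrete factor D, also called adipsin, together with C3 and factor B.

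Levels are log2 processed signals relative to the 75th percentile of their array, a percentile that lay between 201 and 311 signal units in gWAT, 119 and 155 in BAT and 123 and 176 in muscle. Between 51.9% and 59.3% of probes were well above background on each array. All 10 probes were well above background and unsaturated on all 23 arrays, so no member was lost to a filter and every member was tested in every comparison. Tissue markers matched the labels in their means. Adipoq, the adiponectin gene, averaged 8.65 in NZO gWAT and 8.90 in B6 gWAT, Ucp1, the brown fat uncoupling protein, 10.004 in NZO BAT and 10.38 in B6 BAT, and Acta1, skeletal actin, 10.94 in NZO muscle and 11.04 in B6 muscle. Some groups also held transcripts of other cell types. Summed log2 levels of 7 muscle fibre markers were -0.29 to 2.61 in NZO BAT and 7.48 to 9.53 in B6 BAT. Those of 5 brown adipocyte markers were 5.33 to 5.99 in NZO gWAT and 0.46 to 1.73 in B6 gWAT. In the muscle arrays used, the brown adipocyte sums were 2.40 to 4.73 in NZO and 2.825 to 6.35 in B6. The part of these transcripts in the results below was not tested. In bulk tissue, fewer cells of a type and less RNA per cell cannot be told apart.

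The probes of C1qa, C1qb and factor B (Cfb) are shown because each lies close to the probe of another member. On the build mm9 the C1qa probe lies at chr4:136452409-136452468, the C1qb probe at chr4:136436578-136436637 and the Cfb probe at chr17:34993502-34993858, all on the minus strand. The 60 bases of the Cfb probe are spread over more than their own length there, so the probe crosses an intron. The 3 probes read, 5′ to 3′ and with no base set apart, as follows.
C1qa probe: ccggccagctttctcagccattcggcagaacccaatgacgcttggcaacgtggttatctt
C1qb probe: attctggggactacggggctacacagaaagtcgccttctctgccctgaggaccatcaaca
Cfb probe: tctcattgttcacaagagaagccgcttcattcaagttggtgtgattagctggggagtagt
The remaining probes lie at chr4:136445766-136445825 (C1qc), chr17:34865328-34865387 (C4b), chr17:34999575-34999634 (C2), chr17:57343416-57343475 and chr17:57343678-57343737 (C3), chr10:79355302-79355361 (Cfd) and chr6:122798222-122798281 (C3ar1). The C4b probe is annotated to transcripts of C4b and of its close relative C4a, so its signal is uncertain between these genes.

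Promoter sequence was available for 5 of the 9 members (RefSeq, GRCm38.p6). The 250 bases before the start of C1qb and of C1qc are shown because these chains moved together in the data. Capitals mark GAGGAA on either strand, the purine-rich core recognised by the myeloid factor PU.1. C1qb lies at chr4:136886201-136886450 and C1qc at chr4:136892915-136893164, and both are written along their own minus strand.
C1qb promoter: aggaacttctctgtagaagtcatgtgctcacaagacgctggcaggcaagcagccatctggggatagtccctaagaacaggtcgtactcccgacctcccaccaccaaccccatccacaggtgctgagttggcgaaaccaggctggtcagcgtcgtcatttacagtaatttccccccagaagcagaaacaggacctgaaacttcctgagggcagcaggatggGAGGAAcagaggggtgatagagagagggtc
C1qc promoter: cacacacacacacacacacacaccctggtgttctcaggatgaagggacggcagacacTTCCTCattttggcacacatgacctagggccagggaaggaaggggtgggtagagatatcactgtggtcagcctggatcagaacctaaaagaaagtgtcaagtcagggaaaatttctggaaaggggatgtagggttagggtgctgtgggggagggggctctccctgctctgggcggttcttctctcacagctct
C1qb held 1 match, at positions -30 to -25 before the start, and C1qc held 1 match on the other strand, at positions -193 to -188. Over all 32851 promoter windows of the same 250 bases, 23.3% held a match. Of 4 further motifs searched on both strands, none matched in C1qb or C1qc. These were TTGCNNAA (C/EBP type, in 9.56% of windows), the NF-kB motif (4.65%), the interferon-stimulated response element (2.98%) and TTCNNNGAA (STAT type, 7.02%). C3 held 1 TTGCNNAA match at positions -45 to -38, C3ar1 held 1 NF-kB motif match on the other strand at positions -14 to -5, and Cfd held none of the 5.

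In white fat, the C1q chains and the C3a receptor were higher in NZO, C2 and adipsin were lower in NZO, and C4b, C3 and Cfb did not pass the test. With limma and Benjamini-Hochberg adjustment over all 21662 genes tested, 6 of 9 members were called at an adjusted p under 0.05, 4 higher and 2 lower, against 31.2% of all genes called in either direction, 16.6% higher and 14.6% lower. The members' median log2 difference was 0.16, and that of all genes tested was 0.02.

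**Figure D1:**
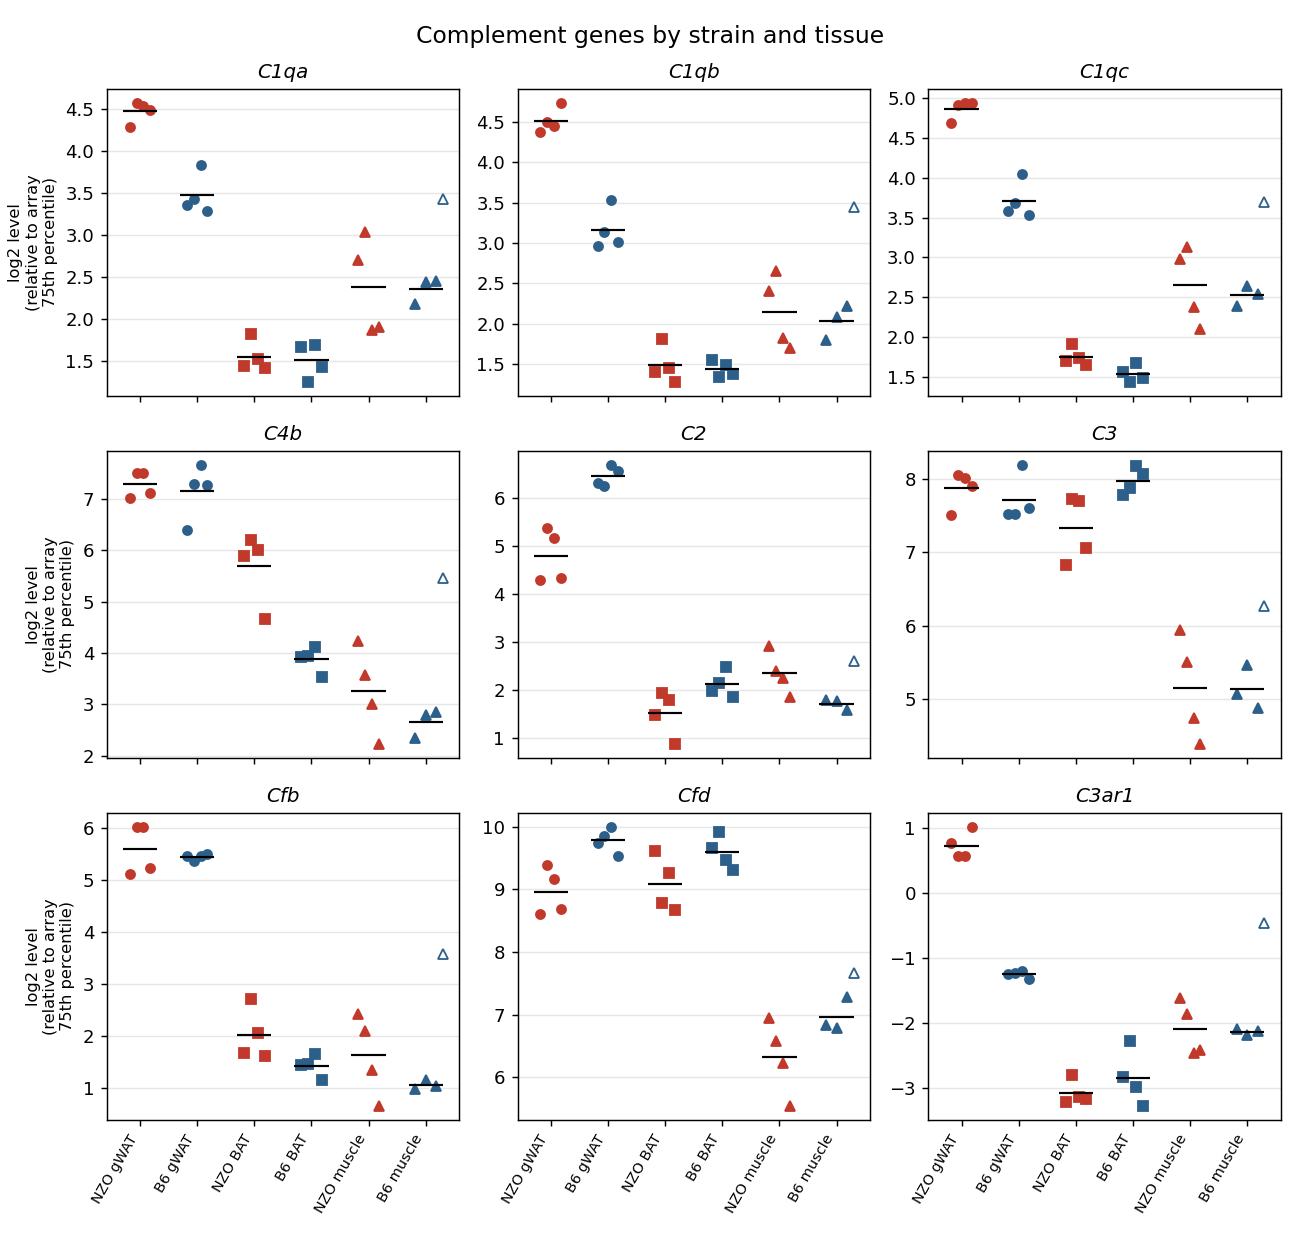
Log2 level relative to the array's 75th percentile (vertical axis) for each complement gene in each group (horizontal axis). Points are arrays (NZO red, B6 blue), black lines are group means, and the open triangle is B6 muscle array 011, which was not used. C1qa, C1qb, C1qc and C3ar1 sit higher in NZO gWAT than in B6 gWAT, C2 and Cfd sit lower, and C4b sits higher in NZO BAT than in B6 BAT.

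C1q is built from A, B and C chains, each with its own gene on chromosome 4. C1qa, the A chain, was at 4.53, 4.49, 4.29 and 4.57 in NZO gWAT and at 3.42, 3.84, 3.28 and 3.35 in B6 gWAT. Every NZO array lay above every B6 array. The difference was 1.00 (SE 0.14, adjusted p = 0.00135), a 1.996-fold higher level. C1qb, the B chain, was at 4.45, 4.74, 4.38 and 4.49 in NZO gWAT and at 3.14, 3.53, 3.01 and 2.97 in B6 gWAT. These groups did not overlap either, and the difference of 1.35 (SE 0.15, adjusted p = 0.000371) was a 2.56-fold higher level. C1qc, the C chain, was at 4.94, 4.94, 4.68 and 4.91 in NZO gWAT and at 3.68, 4.05, 3.53 and 3.58 in B6 gWAT, 2.23-fold higher in NZO (difference 1.16, SE 0.14, adjusted p = 0.000523). In a fit over all 6 groups with slide as a fixed term, the gWAT differences were 1.09, 1.44 and 1.26 for the A, B and C chains. On the 2 slides that carried both strains, differences of C1qa were 1.22 (slide 4, 1 array of each strain) and 1.13 (slide 6, 2 NZO and 1 B6), those of C1qb 1.53 and 1.40 and those of C1qc 1.33 and 1.28.

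C3ar1, the receptor for C3a on macrophages and other cells, was at 0.57, 1.02, 0.77 and 0.57 in NZO gWAT and at -1.22, -1.20, -1.32 and -1.25 in B6 gWAT. The B6 arrays spanned 0.13 at most. It was 3.94-fold higher in NZO (difference 1.98, SE 0.13, adjusted p = 1.99e-05), and its differences on slides 4 and 6 were 1.82 and 1.99. These 4 genes moved beside macrophage transcripts. Of 12 macrophage markers tested in gWAT, 10 were higher in NZO, 1 was lower (Mertk) and 1 was not called (Cd163), and the summed log2 level of the 12 markers was 7.58 to 7.81 in NZO gWAT and 6.36 to 6.71 in B6 gWAT. Of 4 neutrophil markers tested, 2 were higher and 1 lower in NZO (sums 3.71 to 4.64 in NZO gWAT and 0.52 to 1.82 in B6 gWAT), of 6 fibroblast markers 4 were higher and 1 lower (9.31 to 9.76 in NZO gWAT and 8.99 to 9.43 in B6 gWAT), of 7 hepatocyte markers 1 was lower (6.97 to 7.87 in NZO gWAT and 8.59 to 8.94 in B6 gWAT), and of 5 endothelial markers 1 was lower (4.50 to 4.93 in NZO gWAT and 4.51 to 4.83 in B6 gWAT). The part of these transcripts in the C1q and C3ar1 results was not tested.

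C2 encodes the protease that C1s cleaves to complete the classical C3-cleaving enzyme. It was at 5.17, 4.34, 4.30 and 5.38 in NZO gWAT and at 6.25, 6.70, 6.56 and 6.32 in B6 gWAT. The groups did not overlap, and the NZO arrays spread more widely (SD 0.56) than the B6 arrays (SD 0.21). The level was 3.16-fold lower in NZO (difference -1.66, SE 0.27, adjusted p = 0.00230), and the differences on slides 4 and 6 were -0.94 and -1.83. Mesothelial markers, 5 of 5 tested in gWAT and none called, summed to 3.73 to 3.98 in NZO gWAT and 3.71 to 5.09 in B6 gWAT. Of the hepatocyte markers, the cytochrome P450 gene Cyp2e1 was lower in NZO, with a mean of 6.01 in NZO gWAT and 8.53 in B6 gWAT (difference -2.51, adjusted p = 0.0271 by limma), and the other 6 tested gave differences of 0.55 to 1.14, none of them called. The part of these transcripts in the C2 result was not tested.

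Cfd, the factor D protease known as adipsin, was at 9.16, 8.69, 8.61 and 9.38 in NZO gWAT and at 9.86, 9.995, 9.52 and 9.74 in B6 gWAT. No NZO array reached the lowest B6 array. Before scaling, the B6 gWAT signals of Cfd lay close together, at 222202.5 to 229128.8, while the array percentile ran from 222.9 to 311.2. None was flagged as saturated, and whether these signals neared a ceiling was not tested. Cfd was 1.77-fold lower in NZO (difference -0.82, SE 0.20, adjusted p = 0.0152 by limma). The call was lost in the limma fit over all 6 groups with slide as a fixed block (difference -0.66, adjusted p = 0.109). It was also lost with scaling to the array median (difference -0.56, adjusted p = 0.116). Of 8 adipocyte markers in gWAT, 2 were higher in NZO (Cidec and Lep) and 6 were not called, and the summed level was 10.88 to 11.46 in NZO gWAT and 10.88 to 11.16 in B6 gWAT.

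The remaining components gave intervals that include 0. C4b, the thioester component cleaved by C1s, averaged 7.29 ± 0.26 in NZO gWAT and 7.16 ± 0.53 in B6 gWAT (SD, n = 4 each), a difference of 0.13 with a 95% interval of -0.48 to 0.74 by limma (adjusted p = 0.738). C3, on which all pathways converge, averaged 7.87 ± 0.25 in NZO gWAT and 7.71 ± 0.32 in B6 gWAT, a difference of 0.16 with an interval of -0.28 to 0.60. Its second probe gave the same difference of 0.16. Cfb, the factor B protease, averaged 5.60 ± 0.49 in NZO gWAT and 5.45 ± 0.06 in B6 gWAT, a difference of 0.15 with an interval of -0.37 to 0.67. The C2 and Cfb probes lie close together on chromosome 17, and of the pair C2 was called in gWAT and Cfb was not; whether their differences are unequal was not tested.

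**Figure D2:**
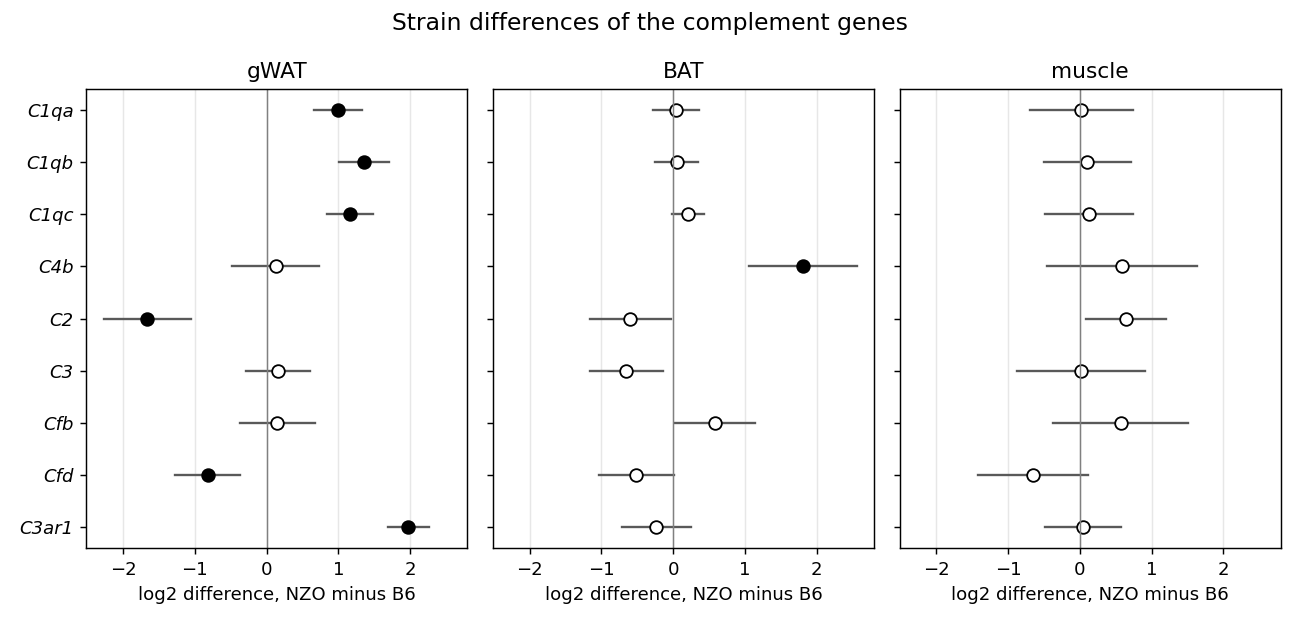
Log2 difference NZO minus B6 (horizontal axis) for each complement gene (vertical axis) in gWAT, BAT and muscle. Points are limma estimates with 95% intervals, filled where the adjusted p was under 0.05: 6 genes in gWAT, C4b in BAT and none in muscle.

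In brown fat 1 of 9 members was called, C4b, against 15.1% of all genes, 7.59% higher and 7.48% lower. C4b was at 6.00, 4.66, 5.89 and 6.204 in NZO BAT and at 3.95, 4.12, 3.54 and 3.93 in B6 BAT. Array 011 of NZO stood below the other NZO arrays and still above every B6 array. The level was 3.50-fold higher in NZO (difference 1.81, SE 0.33, adjusted p = 0.00768 by limma), and the difference was 2.67 on the slide that carried both strains, with 1 array of each. The call was lost with the replicate number as a block (difference 1.304, adjusted p = 0.2855), a fit whose difference rests on the 2 numbers found in both strains. The 7 muscle fibre markers were all lower in NZO BAT, as the sums above show, while macrophage sums were 4.77 to 5.07 in NZO BAT and 4.63 to 4.805 in B6 BAT, with 1 marker of 11 tested higher (Aif1) and 1 lower (Mertk). The muscle fibre transcripts' part in the C4b result was not tested. C3 also did not overlap between strains, at 7.70, 7.06, 6.83 and 7.73 in NZO BAT and at 7.87, 8.19, 8.07 and 7.79 in B6 BAT, but missed the threshold (difference -0.65, SE 0.22, adjusted p = 0.0906 by limma). The C1q chains averaged 1.55, 1.49 and 1.75 (A, B and C) in NZO BAT and 1.51, 1.44 and 1.54 in B6 BAT. Their differences of 0.04, 0.05 and 0.21 had upper 95% limits of 0.36, 0.35 and 0.43. C2 (-0.60), Cfd (-0.51), Cfb (0.58) and C3ar1 (-0.24) were not called. The members' median difference was 0.04, and that of all genes tested was 0.01.

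In muscle none of the 9 members was called by limma, against 10.6% of all genes (4.41% higher and 6.24% lower), and 1 had an unadjusted p under 0.05. That gene was C2, at 2.25, 1.86, 2.92 and 2.39 in NZO muscle and at 1.78, 1.59 and 1.78 in B6 muscle. The strains did not overlap, and the difference was 0.64 (SE 0.24, adjusted p = 0.136 by limma). For the C1q chains the differences were 0.02, 0.11 and 0.12 (A, B and C), with upper 95% limits of 0.74, 0.71 and 0.74. Among the arrays used, NZO muscle varied more than B6 muscle for these genes. This depends on leaving out B6 array 011, which lay above all NZO and B6 muscle arrays used for each chain. C1qa, for example, was at 1.87, 1.91, 2.70 and 3.04 in NZO muscle and at 2.44, 2.45 and 2.17 in B6 muscle. Macrophage sums were 5.41 to 6.09 in NZO muscle and 5.29 to 5.34 in B6 muscle. Hepatocyte sums were 3.53 to 7.77 in NZO muscle and 3.17 to 5.91 in B6 muscle. The part of these transcripts in the muscle values was not tested. With B6 array 011 included, C1qa, C1qb, C1qc, C3, C4b, Cfb and C3ar1 had a negative difference in place of a positive one, none of them called.

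The strain difference itself was compared between tissues in a single limma fit over the 23 arrays. Between BAT and gWAT, 5 of 9 members were called, against 18.6% of all genes, 8.65% with a higher and 9.92% with a lower strain difference in BAT. BAT minus gWAT, the change in strain difference was -0.96 for C1qa (SE 0.29, adjusted p = 0.0282), -1.304 for C1qb (SE 0.26, adjusted p = 0.00169), -0.95 for C1qc (SE 0.24, adjusted p = 0.0106) and -2.21 for C3ar1 (SE 0.27, adjusted p = 1.5e-05). It was 1.68 for C4b (SE 0.52, adjusted p = 0.0299), a call that was lost with scaling to the array median (1.45, adjusted p = 0.0802). C2, at 1.06 (SE 0.37, adjusted p = 0.0530), missed the threshold. It was called under quantile normalization (1.43, adjusted p = 0.00784), normexp (1.16, adjusted p = 0.0170), the background filter in every group (1.06, adjusted p = 0.0465) and from the series table (1.17, adjusted p = 0.0143). With the left-out array added to the fit, 2 members were called, with adjusted p = 0.0757 for C1qa, 0.0589 for C1qc and 0.138 for C4b. The C1qa call was also lost without any of 6 single arrays (NZO gWAT 007 or 009, B6 gWAT 015, NZO BAT 003, B6 BAT 009 or 011; adjusted p = 0.0523 to 0.0563), and the C4b call without any of 7 (B6 gWAT 010, 011 or 015, NZO BAT 003, 007 or 009, B6 BAT 015; adjusted p = 0.0504 to 0.0661). C2 was called without any of 4 (NZO gWAT 007 or 009, NZO BAT 011, B6 BAT 011; adjusted p = 0.0175 to 0.0453).

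Between muscle and gWAT, 5 of 9 members were called, against 20.5% of all genes, 7.89% with a higher and 12.6% with a lower strain difference in muscle. For C2 the change, muscle minus gWAT, was 2.297 (SE 0.39, adjusted p = 0.000434). It was -0.97, -1.25 and -1.03 for the A, B and C chains of C1q and -1.93 for C3ar1, with adjusted p between 0.000117 (C3ar1) and 0.0296 (C1qa). The C1qa call was lost without any of 7 single arrays (NZO gWAT 007 or 009, B6 gWAT 015, NZO muscle 009 or 011, B6 muscle 010 or 015; adjusted p = 0.0533 to 0.0687), and under quantile normalization with every array kept (-0.795, adjusted p = 0.0733). Between muscle and BAT no member was called by limma, against 6.02% of all genes (2.55% higher and 3.47% lower), and 2 (C4b and C2) had an unadjusted p under 0.05.

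Between tissues, white fat held the higher level of most members. In BAT against gWAT, 7 of 9 members were lower in NZO (66.0% of all genes called, 37.9% higher and 28.1% lower) and 7 of 9 lower in B6 (59.7%, 33.5% higher and 26.2% lower), and C3 and Cfd were not called in either strain. In muscle against gWAT, 9 of 9 were lower in NZO (70.3% of all genes called, 35.7% higher and 34.6% lower) and 9 of 9 in B6 (69.6%, 35.9% higher and 33.6% lower). In B6 muscle against gWAT the C3ar1 difference was -0.88, and its call was lost with the left-out array added (-0.46, adjusted p = 0.170) and under normexp (-0.21, adjusted p = 0.0643). From the series table it was -0.38 and still called, and in NZO it was -2.81, or -1.77 under normexp. The members' median difference was -3.03 for BAT against gWAT in NZO and -1.965 in B6, where all genes tested had medians of 0.20 and 0.11. For muscle against gWAT it was -2.64 in NZO and -2.58 in B6, where all genes had 0.07 and 0.06.

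Cfb averaged 2.02 ± 0.51 in NZO BAT and 5.60 ± 0.49 in NZO gWAT, an 11.98-fold lower level, and 1.44 ± 0.20 in B6 BAT and 5.45 ± 0.06 in B6 gWAT, a 16.2-fold lower level (SD, n = 4 each). C2 was 9.66-fold lower in BAT than in gWAT of NZO and 20.2-fold lower in B6. C4b was 3.03-fold lower in NZO and 9.67-fold lower in B6. The C1q chains were 7.57- to 8.68-fold lower in NZO BAT than in NZO gWAT, and 3.30- to 4.50-fold lower in B6 BAT than in B6 gWAT. C3ar1 differed by -3.80 between BAT and gWAT of NZO, and by -1.997 under normexp and -2.43 from the series table. In B6 its difference was -1.59, and -0.39 and -0.69 under these settings. All of these C3ar1 values were called.

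C3 and Cfd were not called between the fats. C3 averaged 7.33 ± 0.45 in NZO BAT and 7.87 ± 0.25 in NZO gWAT, and 7.98 ± 0.18 in B6 BAT and 7.71 ± 0.32 in B6 gWAT. The BAT difference was -0.55 in NZO (95% interval -1.13 to 0.04) and 0.27 in B6 (-0.32 to 0.85). Cfd differed by 0.12 in NZO (-0.43 to 0.67) and by -0.19 in B6 (-0.73 to 0.36). Under scaling to the median, quantile normalization and normexp the C3 difference in NZO was called (-0.996, -0.99 and -0.73), and under quantile normalization so was Cfd in B6 (-1.14). In muscle, by contrast, C3 was 6.62-fold lower than in gWAT of NZO and 5.98-fold lower in B6, and Cfd was 6.22-fold lower in NZO and 7.02-fold lower in B6. The B6 comparisons of Cfd with gWAT use the B6 gWAT signals that lay close together before scaling. Whether these neared a ceiling was not tested. Adipocyte marker sums stood at 6.97 to 7.75 in NZO muscle and 6.92 to 7.35 in B6 muscle, and at 10.88 to 11.46 in the fats of both strains.

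In muscle against BAT, 8 of 9 members were called in NZO (63.9% of all genes, 27.8% higher and 36.1% lower) and 7 of 9 in B6 (62.1%, 29.8% higher and 32.3% lower). The C1q chains and C3ar1 were higher in muscle in both strains. In B6 the C3ar1 difference was 0.71, and its call was lost under normexp (0.18, adjusted p = 0.140) and from the series table (0.305, adjusted p = 0.0502). In NZO it was 0.99, and 0.23 and 0.40 under these settings, both still called. In NZO the C1q chains were at 1.57 to 1.87 times their BAT level, and in B6 at 1.51 to 1.98 times. C4b, C3 and Cfd were lower in muscle in both strains. In B6 the C4b call was lost without muscle array 009 (adjusted p = 0.0551) and with the left-out array added (difference -0.52), and the C1qb call without muscle array 015 (adjusted p = 0.0660). The added array moved the B6 differences of C1qb and C3ar1 to 0.949 and 1.124, against 0.597 and 0.706 without it. C2 was called in NZO (difference 0.83, SE 0.26, adjusted p = 0.00960 by limma) and not in B6 (difference -0.40, SE 0.28, adjusted p = 0.230 by limma); the difference between these was the muscle against BAT strain contrast above, which missed the threshold (1.23, SE 0.39, adjusted p = 0.0662). Cfb was called in neither strain.

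By group, the order of mean levels from high to low was NZO gWAT, B6 gWAT, NZO muscle, B6 muscle, NZO BAT and B6 BAT for C1qa, C1qb and C1qc. NZO and B6 muscle overlapped, as did NZO and B6 BAT, and for C1qb both muscle groups also overlapped NZO BAT. The gWAT groups overlapped with no other group. C3ar1 kept this order but for BAT, where B6 came above NZO and overlapped it. Its NZO muscle group overlapped B6 muscle and B6 BAT. For C2 the order was B6 gWAT, NZO gWAT, NZO muscle, B6 BAT, B6 muscle and NZO BAT. There NZO muscle overlapped B6 BAT, and NZO BAT overlapped NZO muscle, B6 BAT and B6 muscle. For C4b it was NZO gWAT, B6 gWAT, NZO BAT, B6 BAT, NZO muscle and B6 muscle. There the gWAT groups overlapped, NZO BAT stood clear of its neighbours, and B6 BAT overlapped NZO muscle, which overlapped B6 muscle. For Cfb it was NZO gWAT, B6 gWAT, NZO BAT, NZO muscle, B6 BAT and B6 muscle, with an open gap between gWAT and the rest. For C3 and for Cfd each fat group overlapped the next, and all of them lay above both muscle groups.

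Genes with levels most like each member over the 23 arrays are given by Pearson's r, as a description of points that share tissue and strain. C1qa was nearest to C1qc (r = 0.995), Fcgr3 (0.990) and C1qb (0.989), and C1qb to Clec4a1 (0.990). C1qc had Ccl9 (0.991) between its partner chains. C3ar1 was nearest to Blnk (0.983), Plekho2 (0.983) and Ctss (0.980). C4b was nearest to Tlr4 (0.966), Sgsm2 (0.963) and Ehmt2 (0.960), and C2 to Tshz2 (0.978), D430019H16Rik (0.977) and Pdk3 (0.971). C3 was nearest to Btd (0.968), Ropn1l (0.967) and Apmap (0.966), and Cfb to Serpina3c (0.982), Sash1 (0.980) and Sncg (0.978). For Cfd the nearest named genes were Ces1f and Il17rc (0.974 or higher), after a region the array lists by position. Over the 8 gWAT arrays, C1qa was nearest to C1qc (0.997), and C1qc to Tnfaip8l2 (0.998) and C1qa. Csf1r, the receptor for the macrophage growth factor CSF1, followed at 0.994 for C1qa and 0.995 for C1qc. C1qb was nearest to Tnfaip8l2 (0.997), Pycard (0.995) and Cmtm7 (0.994), C3ar1 to Lcp1, Prss46 and Stap1 (0.998 or higher), and C2 to Vnn3 (0.993) and Enpp2 (0.992). Cfd was nearest to Fgfr1 (0.994) and Srr (0.993), C3 to Hivep3 (0.973), Hs3st5 (0.968) and Mettl21e (0.967), Cfb to Dym (0.981), Tprkb (0.976) and Rab12, and C4b to Zfp651 (0.978) and Sctr (0.953).

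Within groups, after subtracting each group's mean, C1qa, C1qb and C1qc varied with the macrophage sum over the 23 arrays (r = 0.892, 0.881 and 0.923), and C3ar1 less closely (r = 0.552). C3 and Cfd followed the adipocyte sum at r = 0.647 and 0.747, and C3 the macrophage sum at 0.836. Other sums varied with members too. For the C1q chains r was 0.599 to 0.675 with the hepatocyte sum and 0.52 to 0.543 with the fibroblast sum. It was 0.45 to 0.617 with the adipocyte sum. Cfd followed the hepatocyte sum at 0.681, and C4b the macrophage and hepatocyte sums at 0.72 each. The points share arrays and array scaling, and in gWAT the hepatocyte sum rests most on Cyp2e1.

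**Figure D3:**
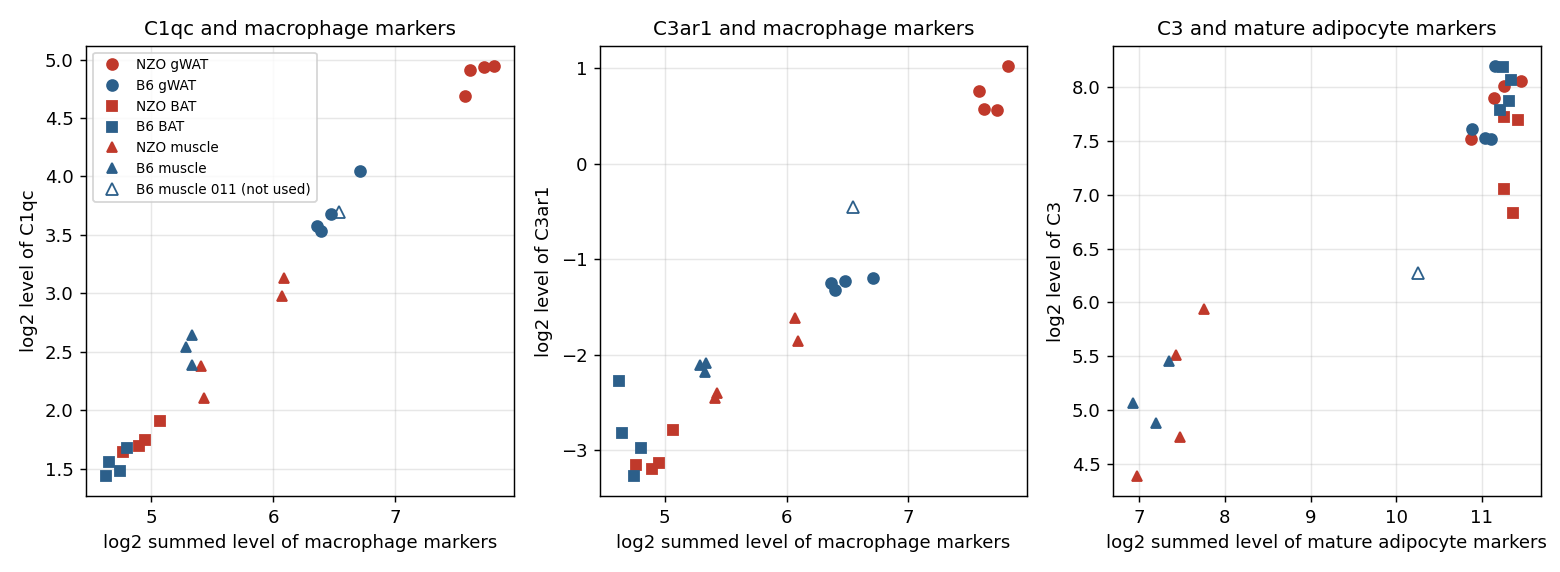
Log2 level of C1qc and C3ar1 against the log2 summed level of macrophage markers, and of C3 against that of mature adipocyte markers, with a point per array (NZO red, B6 blue, circles gWAT, squares BAT, triangles muscle, open triangle the unused B6 muscle array 011). NZO gWAT stands at the top right of the macrophage panels, with marker sums of 7.58 to 7.81, and muscle at the lower left of the adipocyte panel.

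Of 53 other complement genes listed, 50 were on the array, and the listed genes were chosen with earlier results of these data known. In gWAT 42 were tested, of which 8 were higher in NZO and 5 lower, counts near the shares of all genes (16.6% higher and 14.6% lower, 31.2% together). Those called were regulators (4 of 14 higher and 2 lower) or receptors (4 of 11 higher and 3 lower), while 12 initiation genes and 5 alternative and terminal pathway genes were tested and did not pass. The median difference over the 42 was 0.09, against 0.02 over all genes tested.

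**Figure D4:**
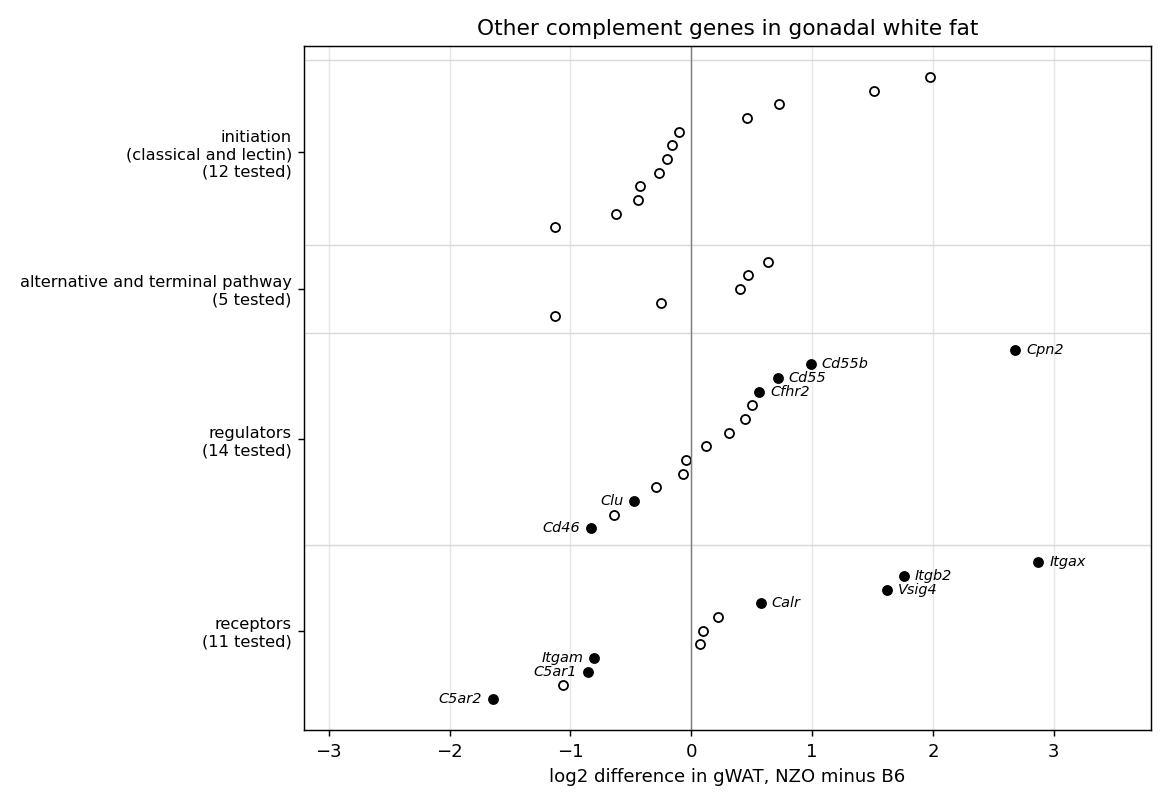
Log2 difference NZO minus B6 in gWAT (horizontal axis) for other complement genes, grouped by role (vertical axis). Filled points were called at an adjusted p under 0.05 and are named; the place of Cpn2 rests on B6 arrays of which 3 of 4 were not well above background. The called genes run from C5ar2 at -1.64 to Itgax at 2.87.

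Among receptors, Itgax, the alpha chain of complement receptor 4, averaged 3.06 ± 0.07 in NZO gWAT and 0.18 ± 0.45 in B6 gWAT, 7.32-fold higher (adjusted p = 4.09e-05 by limma). Its beta chain Itgb2 was 3.39-fold higher (adjusted p = 7.39e-05), and Vsig4, a macrophage receptor for C3 fragments, 3.07-fold higher (adjusted p = 0.000877). Receptors for C5a were lower in NZO, C5ar2 by 1.64 (adjusted p = 6.30e-05) and C5ar1 by 0.86 (adjusted p = 0.0160). Itgam, the alpha chain of complement receptor 3, was called lower (difference -0.81), but its other probes gave 1.21 and 0.33, so it has no settled direction. Among regulators, the decay-accelerating genes Cd55b (difference 0.99) and Cd55 (0.72) were higher, with a second Cd55b probe at -0.18, and Cd46, a cofactor for C3b cleavage, was lower (-0.83). Cpn2, a subunit of the enzyme that trims C3a, was called higher (adjusted p = 0.0280), but its probe was well above background on 4 NZO arrays and on 1 B6 array, so that it was tested through NZO alone. It was at -3.01, -2.65, -2.06 and -2.99 in NZO gWAT and at -3.25 on that B6 array, and no fold is given. Clu, the fluid-phase inhibitor clusterin, was lower (-0.47).

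In BAT 34 were tested, and those called were 5 genes lower in NZO, against the 7.59% and 7.48% of all genes given above. These were Cd59b, an inhibitor of the membrane attack complex (difference -1.69), Cpn2 (-1.17), C1rl (-1.06), Clu (-0.75) and Calr (-0.36). In muscle 37 were tested, 1 higher (Cd59a, 0.90) and 3 lower, near the 4.41% and 6.24% of all genes. Cd59b was not well above background on any NZO muscle array, so that it was tested through B6 alone. It was at least 4.90-fold lower in NZO, and no p-value is given. C5ar2 (-1.66) was above background on 3 of 4 NZO arrays, and it also passed the filter through B6 alone. The remaining gene was Clu (-0.99). Clu was the gene called lower in all 3 tissues.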

How the data were processed

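Total RNA was labelled with Cy3 and hybridised to single-colour Agilent 60-base mouse arrays, 1 array per sample. Per the file headers, the authors' deposited intensities came from Agilent Feature Extraction 11.0.1.1 (the submitters' processing notes name version 9.1) and were background-subtracted and detrended within the array, not scaled between arrays. The deposited series table held median spot intensities and served as an alternative only. Spots of a probe were averaged, and log2 levels taken minus the array's 75th percentile. Outlier spots were left out unless every spot of the probe on that array was an outlier. Only 432 of 55681 probes had several spots, so for the others a flagged value was kept. Strain was fitted per tissue, tissue and interaction contrasts over 23 arrays, with limma 3.58.1 in R 4.3.3, on probes that passed the scanner's background flag throughout 1 or more of the groups compared. The probe with the highest mean stood for a gene, and an adjusted p under 0.05 was a call. Slides 1 to 6 were taken as batches in alternative fits only, and the main fits held no term for slide. Every member was named, other complement genes only where called, up to 6 per direction and tissue. Members and lists were chosen with earlier results of these data known. No NZO genome was used to look for mismatches under the probes. The number of arrays limits precision: over all genes the median SE between strains was 0.17 (gWAT), 0.15 (BAT) and 0.16 (muscle) on the log2 scale. Figures used matplotlib 3.10.9. Scripts were tested on simulated data.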

Additional observations from a re-analysis of the deposited data

Results flagged for a closer look

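Strain differences that were unlike between tissues were C1qa (-0.96), C1qb (-1.304), C1qc (-0.95), C4b (1.68) and C3ar1 (-2.21) for BAT minus gWAT, and C1qa (-0.97), C1qb (-1.25), C1qc (-1.03), C2 (2.297) and C3ar1 (-1.93) for muscle minus gWAT, all past the interaction test of limma.

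A sample far from the others of its group was found in 9 of 120 groups of 4 arrays tested, where chance flags about 1 in 20. C1qc in NZO gWAT array 003 was at 4.68, below the others by 0.22 or more. C3 in B6 gWAT array 011 was at 8.20, and the next highest was 7.61. C3ar1 in NZO BAT array 007 was at -2.79, and the next was -3.13. C1rl was at 1.93 and Calr at 4.06 in B6 BAT array 010, both low. Cd55b was at -1.15 in B6 BAT array 015 and Cd59a at 4.88 in B6 BAT array 011, both low. C5ar1 was at -0.77 in B6 gWAT array 015, high, and Cd55 at 2.99 in NZO muscle array 011, low.

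The unused B6 muscle array 011 lay above the other B6 muscle arrays for all 9 members. It was at 3.43 for C1qa, 3.44 for C1qb, 3.69 for C1qc, 5.47 for C4b and 2.61 for C2, and at 6.27 for C3, 3.59 for Cfb, 7.66 for Cfd and -0.46 for C3ar1. Its adipocyte marker sum was 10.26, with 6.92 to 7.35 in the other B6 muscle arrays, and its macrophage sum 6.55, with 5.29 to 5.34 in the others. The part of these transcripts in its levels was not tested.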

How the results depend on the processing

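Under the alternatives that keep every replicate, 1009 member results stayed on their side of the threshold, 14 lost a call, 12 gained one and none reversed when called; without single arrays the numbers were 1007, 22 and 6. The C1q chains, C3ar1 and C2 were called in gWAT under every alternative run there. Members called in muscle unlike BAT were 1 under quantile normalization, 1 under normexp and 1 from the series table, each C2, in place of 0; with all 24 arrays the calls in BAT unlike gWAT were 2 in place of 5. Leaving out single arrays gave 3 to 6 for BAT unlike gWAT (3 without B6 gWAT 015 or NZO BAT 003) 4 to 5 for muscle unlike gWAT, 6 to 7 for muscle against BAT in B6 and 0 to 1 for muscle unlike BAT (1 without NZO muscle 011 or NZO BAT 007). The labels do not say what a sample number shares. Of 20 same-numbered pairs across tissues of a strain 7 correlated over 0.1, so the numbers were not taken as pairs; 5 of 7 BAT arrays correlated best with the gWAT array of their own number, as did 2 of 6 muscle arrays with gWAT and 0 of 7 with BAT, a hint from the data and not the design. With the number as a replicate block, BAT had 0 members called, C4b at 1.304, and 378 genes called in all in place of 3137. For the strain contrast in gWAT and in muscle no such block could be fitted, since the strains share only 1 number there. Across tissues, the block of strain and number gave C1qa -0.85 (adjusted p = 0.0518) and C2 1.102 (adjusted p = 0.0348) for BAT unlike gWAT. All genes called in muscle were 2228, and 1239 with scaling to the median, 1356 without the filter and 1065 with all 24 arrays. Without NZO muscle 003 or 007 or B6 muscle 009 or 010 they were 962 to 1435, the single-array removals that moved this count most. For muscle unlike BAT they were 1343, 565 with median scaling and 833 to 860 without B6 muscle 009 or 010. Median scaling moved the median gWAT strain difference of all genes to 0.28, from 0.02, and the share of calls higher in NZO to 74.9% from 53.2%; for BAT against gWAT that share was 31.8% in NZO (57.4% as reported) and 42.8% in B6 (56.1%), and for muscle against gWAT in NZO 31.9% (50.8%). In the interaction contrasts it was 23.4% (46.6%) for BAT unlike gWAT, 17.6% (38.6%) for muscle unlike gWAT and 52.9% (42.3%) for muscle unlike BAT. The series table gave 66.2% for BAT against gWAT in B6, and quantile normalization 50.2% for muscle unlike gWAT.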
